A study of Mus musculus with 6 samples.

Results

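The synaptic vesicle release machinery was followed in the spinal cord of wild-type mice 6 weeks after a contusion at thoracic level T10. It was taken as 39 named genes, chosen by symbol, out of 56859 genes in the table of read counts. The injury + AZ876 group (n = 3) was given the LXR (liver X receptor) agonist AZ876 for the first week after the contusion, as 1 intraperitoneal dose of 5 mg/kg each day. The injury group (n = 3) had the same contusion and no AZ876, and the labels state that control animals received the solvent alone. All 6 libraries carry 1 batch label. The labels used here do not state the age, sex or strain of the mice, or the length of cord taken. No uninjured cord is part of the comparison.

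Synaptic vesicles release transmitter when SNARE proteins on the vesicle and on the plasma membrane zip together. Complexins and the calcium sensors of the synaptotagmin family hold this step until calcium enters. Synapsins tether the reserve of vesicles, Rab3 and the scaffolds of the active zone dock and prime them, and NSF, dynamin and synaptojanin take the SNAREs apart and recover the membrane. In the cord, these genes are transcribed in motor neurons and interneurons, while terminals of descending and sensory axons hold proteins whose mRNAs are made elsewhere. Several members are also used for secretion by glia and other cells. From general knowledge, 7 genes (Sypl, Syt11, Nsf, Vamp2, Synj1, Syngr1 and Syt7) were classed as shared with glia and the other 32 as neuron-only. These classes were set with earlier results of these data known, so the contrast between them is a description and was not tested.

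Neuron-only release genes were at lower mean levels after AZ876: all 32 had a log2 fold change (AZ876 over injury) below 0, from −0.99 to −0.28, with a median of −0.71. The glia-shared genes had a smaller difference, with 6 of 7 below 0, a range from −0.63 to 0.16 and a median of −0.39. Across all 17599 genes tested, 49.5% lay below 0 and the median was 0.0040. No member passed the test: in edgeR (quasi-likelihood test, Benjamini-Hochberg adjustment over all genes) their adjusted p-values ran from 0.330 to 0.820, and 0% of all genes were called. At an unadjusted p under 0.05, 14 of 39 members were lower and 0 higher, against 6.74% of all genes lower and 7.98% higher. DESeq2 called 1 member lower, Syt2, and 0 higher, against 0.347% of all genes lower and 0.797% higher. limma-voom called 0 members and 0% of all genes after adjustment, and at an unadjusted p under 0.05 had 22 members lower, against 7.88% of all genes. With the replicate number as a block edgeR called 0 members, and 0% of all genes lower and 0.0114% higher. In 5 members every AZ876 library lay below every injury library, against 8.64% of all genes, and in 0 above, against 10.2%. All 39 members passed the filter on low counts, and the least abundant, Slc17a7, averaged 23.8 counts per library.

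The libraries within a group differed widely. Summed over the 32 neuron-only genes, the level was 5915, 3127 and 2529 TMM-scaled CPM (read counts divided by effective library size) in AZ876 replicates 1, 2 and 3, against 7417, 7294 and 5364 CPM in injury replicates 1, 2 and 3. The groups overlapped, because AZ876 replicate 1 lay above injury replicate 3. In single genes, AZ876 replicate 1 was above injury replicate 3 for 33 of the 39. Without AZ876 replicate 1, the median log2 fold change of all members was −1.16 and edgeR called 17 of 39 members lower, where 1.64% of all genes were called lower. Of these 17, 16 were neuron-only and 1, Nsf, was shared. AZ876 replicate 1 was the highest AZ876 library in 37 of the 39 members, so leaving it out lowers the AZ876 level by construction. Without any other single library, edgeR called 0 members.

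**Figure D1:**
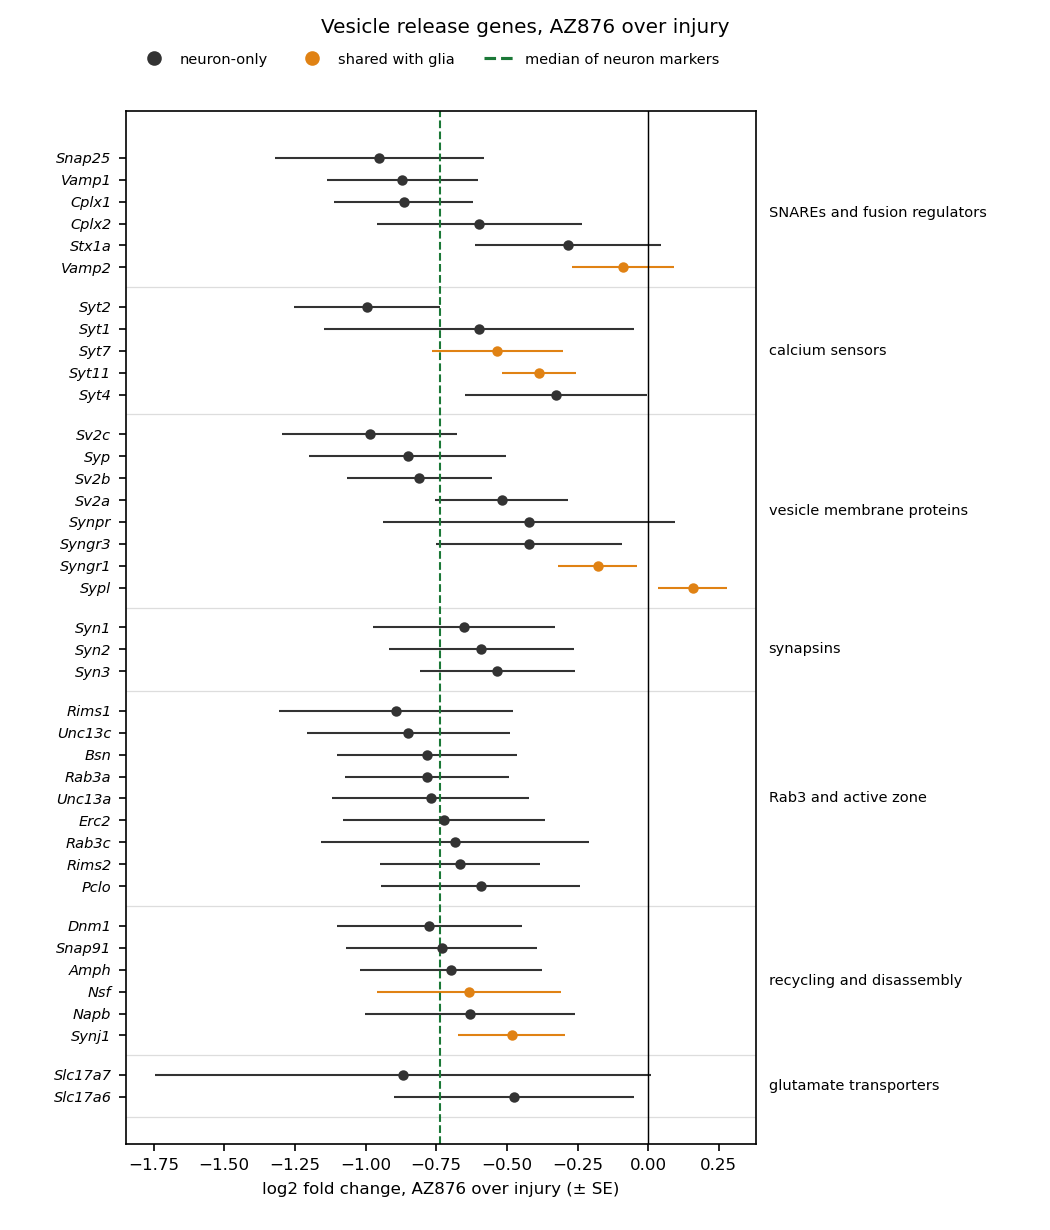
Log2 fold change of AZ876 over injury with its standard error for the 39 release genes, grouped by role; black points are neuron-only genes and orange points genes shared with glia. All points except Sypl lie left of 0, and the neuron-only genes scatter around the dashed line, the median of 17 neuron markers at −0.74.

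Of the SNARE genes and their regulators, Snap25 had the highest mean CPM, at 696 with AZ876 and 1346 with injury. Divided by merged exon length, Cplx1 was the highest. Per kilobase of exon, mean levels in the AZ876 libraries were 196 CPM for Cplx1, 103 for Snap25, 70.1 for Vamp2, 45.9 for Vamp1, 18.3 for Cplx2 and 5.48 for Stx1a. The same levels in the injury libraries were 356, 198, 74.5, 83.9, 27.6 and 6.65 CPM per kilobase. Vamp1 stood above Vamp2 on this scale in the injury group and below it in the AZ876 group. In CPM, Vamp1 was above Vamp2 in every library.

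Snap25, the plasma membrane SNARE of neurons, was at 1141, 505 and 443 CPM in the AZ876 libraries, against 1461, 1576 and 1001 CPM in the injury libraries. AZ876 replicates 2 and 3 were far below the injury libraries, and replicate 1 was inside their range. The log2 fold change was −0.95 ± 0.37 (SE; edgeR adjusted p = 0.330).

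Cplx1 encodes complexin 1, which clamps the assembled SNAREs and is the main complexin of cord and brainstem. It was at 597, 395 and 292 CPM in the AZ876 libraries, against 788, 825 and 725 CPM in the injury libraries. The groups did not overlap. The means were 428 ± 155 CPM with AZ876 and 780 ± 50.4 CPM with injury (SD, n = 3 each), a log2 fold change of −0.86 ± 0.25 (SE; edgeR adjusted p = 0.330.) Cplx2, the paralog that prevails in forebrain, had a log2 fold change of −0.60 ± 0.36 (SE), with overlapping groups.

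Vamp1 and Vamp2 encode synaptobrevins 1 and 2, the vesicle SNAREs. Vamp1, the form that prevails in cord, brainstem and motor terminals, was at 666, 427 and 308 CPM in the AZ876 libraries, against 872, 937 and 751 CPM in the injury libraries. Every AZ876 library lay below every injury library, with a log2 fold change of −0.87 ± 0.27 (SE; edgeR adjusted p = 0.330). Vamp2, which glia use as well, was at 328, 239 and 234 CPM in the AZ876 libraries, against 314, 306 and 231 CPM in the injury libraries. The groups covered nearly the same range, and the log2 fold change was −0.088 ± 0.18 (SE). Stx1a, which encodes syntaxin 1A, had a log2 fold change of −0.28 ± 0.33 (SE), and of 0.083 without injury replicate 1.

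Of the calcium sensors, Syt2 had the largest difference of the 39 members. It encodes synaptotagmin 2, the fast sensor of motor and other rapidly firing neurons, and the table lists it as ENSMUSG00000026452 at chr1:134574415-134690331 (plus strand), in a genome build it does not name. Syt2 was at 215, 131 and 106 CPM in the AZ876 libraries, against 313, 332 and 255 CPM in the injury libraries. The groups did not overlap, and the mean with AZ876 was 0.502 times the mean with injury. The log2 fold change was −0.99 ± 0.26 (SE; edgeR adjusted p = 0.330, DESeq2 adjusted p = 0.0356). Syt1, the fast sensor that prevails in forebrain, had −0.60 ± 0.55 (SE), with AZ876 replicate 1 at 122 CPM beside 35.8 and 35.1 CPM in AZ876 replicates 2 and 3. Syt4, a family member that binds calcium poorly, had −0.33 ± 0.32 (SE).

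Syt11 encodes a synaptotagmin without calcium binding that neurons and astrocytes use in membrane traffic. It was at 585, 519 and 462 CPM in the AZ876 libraries, against 712, 686 and 649 CPM in the injury libraries. The groups did not overlap, and the spread within them was small. The log2 fold change was −0.39 ± 0.13 (SE; edgeR adjusted p = 0.330). Syt7, a slow sensor that also serves lysosome exocytosis in many cells, was at 108, 62.3 and 70.7 CPM in the AZ876 libraries, against 140, 114 and 93.8 CPM in the injury libraries. AZ876 replicate 1 was again inside the injury range, and the log2 fold change was −0.53 ± 0.23 (SE).

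Among the vesicle membrane proteins, the paralogs Syp and Sypl had log2 fold changes of opposite sign. Syp encodes synaptophysin, the classic marker of synaptic vesicles, and Sypl the related pantophysin, which is made in most tissues. Syp was at 247, 124 and 100.3 CPM in the AZ876 libraries, against 345, 301 and 204 CPM in the injury libraries. The groups overlapped through AZ876 replicate 1, with a log2 fold change of −0.85 ± 0.35 (SE). Sypl was at 130, 155 and 149 CPM in the AZ876 libraries, against 117, 131 and 141 CPM in the injury libraries. It was the 1 member with a positive log2 fold change, 0.16 ± 0.12 (SE; edgeR adjusted p = 0.518), and its groups overlapped. The 150 bases before the RefSeq start of each gene (GRCm38.p6, plus strand) are shown because they set the neuron-only paralog beside the widely made one, with each CG dinucleotide in capitals. The Syp stretch is chrX:7638430-7638579 and holds 9 CG, and the Sypl stretch, before the first of its starts, is chr12:32953795-32953944 and holds 17, where the median of all 32851 windows is 4. Genes with several starts were counted at the one of lowest coordinate, whichever their strand. On this count, neuron-only members ran from 0 (Sv2b, which has 4 windows) to 26 (Syt2) and glia-shared members from 8 (Syt11) to 24 (Nsf). This pair therefore does not stand for the classes.
Syp: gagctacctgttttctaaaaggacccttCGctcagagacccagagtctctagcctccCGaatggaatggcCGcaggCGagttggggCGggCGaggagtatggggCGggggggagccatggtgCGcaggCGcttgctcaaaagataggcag
Sypl: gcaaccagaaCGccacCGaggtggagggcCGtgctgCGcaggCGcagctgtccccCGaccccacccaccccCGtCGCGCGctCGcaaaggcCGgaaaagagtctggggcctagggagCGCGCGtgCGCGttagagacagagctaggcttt

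The 3 Sv2 genes encode vesicle glycoproteins that serve as entry receptors for botulinum neurotoxins. Sv2c was at 131, 65.4 and 56.5 CPM in the AZ876 libraries, against 175, 186 and 140 CPM in the injury libraries. The groups did not overlap, and the log2 fold change was −0.98 ± 0.31 (SE; edgeR adjusted p = 0.330.) Sv2a, the form present at nearly all synapses, was at 297, 194 and 163 CPM in the AZ876 libraries, against 352, 329 and 255 CPM in the injury libraries. Its log2 fold change was smaller, −0.52 ± 0.24 (SE), and its groups overlapped. Sv2b had −0.81 ± 0.26 (SE). Syngr1, a synaptogyrin gene classed as glia-shared, was at 241, 180 and 220 CPM in the AZ876 libraries, against 245, 260 and 219 CPM in the injury libraries, and the log2 fold change was −0.18 ± 0.14 (SE). The neuronal synaptogyrin gene Syngr3 had −0.42 ± 0.33 (SE), and Synpr, which encodes synaptoporin, −0.42 ± 0.52 (SE).

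The synapsin genes had similar differences. Syn1, the most abundant of them per kilobase, was at 221, 124 and 84.6 CPM in the AZ876 libraries, against 262, 219 and 194 CPM in the injury libraries. AZ876 replicate 1 lay between injury replicates 1 and 2, and the log2 fold change was −0.65 ± 0.32 (SE; edgeR adjusted p = 0.364.) Syn2 had −0.59 ± 0.33 (SE) and Syn3, at a mean of 4.12 CPM with AZ876 and 5.95 CPM with injury, −0.53 ± 0.27 (SE). Of the merged exon bases of Syn3, 14.1% lie on the opposite strand of Timp3, so that reads of the 2 genes cannot be told apart there without strand information. For Syp, 16.8% lie opposite the predicted gene Gm14703, and for Syt4 14.5% opposite Gm26658.

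Many neuron-specific genes carry near their start a binding element of REST, a repressor that keeps them silent outside neurons. Both strands of the RefSeq windows from 250 bases before to 50 after each start were searched for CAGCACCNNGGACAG, the core of that element, and windows were held for 32 of the 39 members. With every one of the 13 fixed letters required, 0 of 32 members had a match, against 0.0407% of all 27025 genes. With up to 1 letter different it was 2 of 32 (6.25%), against 0.211%, and with up to 2 different 3 of 32 (9.38%), against 2.22%. All matched members, Syn1, Slc17a6 and, at 2 letters, Syt2, were among the 27 neuron-only genes held, and 0 of the 5 glia-shared genes matched. With 5 windows, the absence of a match cannot set the classes apart. The limit of 1 letter used for the sequences printed was chosen after these matches were seen, so the shares are a description of these windows and no more. The 2 closest matches are shown so that the letters can be read, with the core in capitals, on GRCm38.p6. The Syn1 match lies from −230 to −216 relative to the start, within chrX:20921114-20921168 on the minus strand. The Slc17a6 match lies from 35 to 49 past the start on the reverse strand, so the core reads as its reverse complement. The stretch shown is chr7:51621850-51621879 on the plus strand.
Syn1: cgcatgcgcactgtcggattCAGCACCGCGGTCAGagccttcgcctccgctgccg
Slc17a6: ttccttagcttcctCTGTCCGTGGTCCTGa

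**Figure D2:**
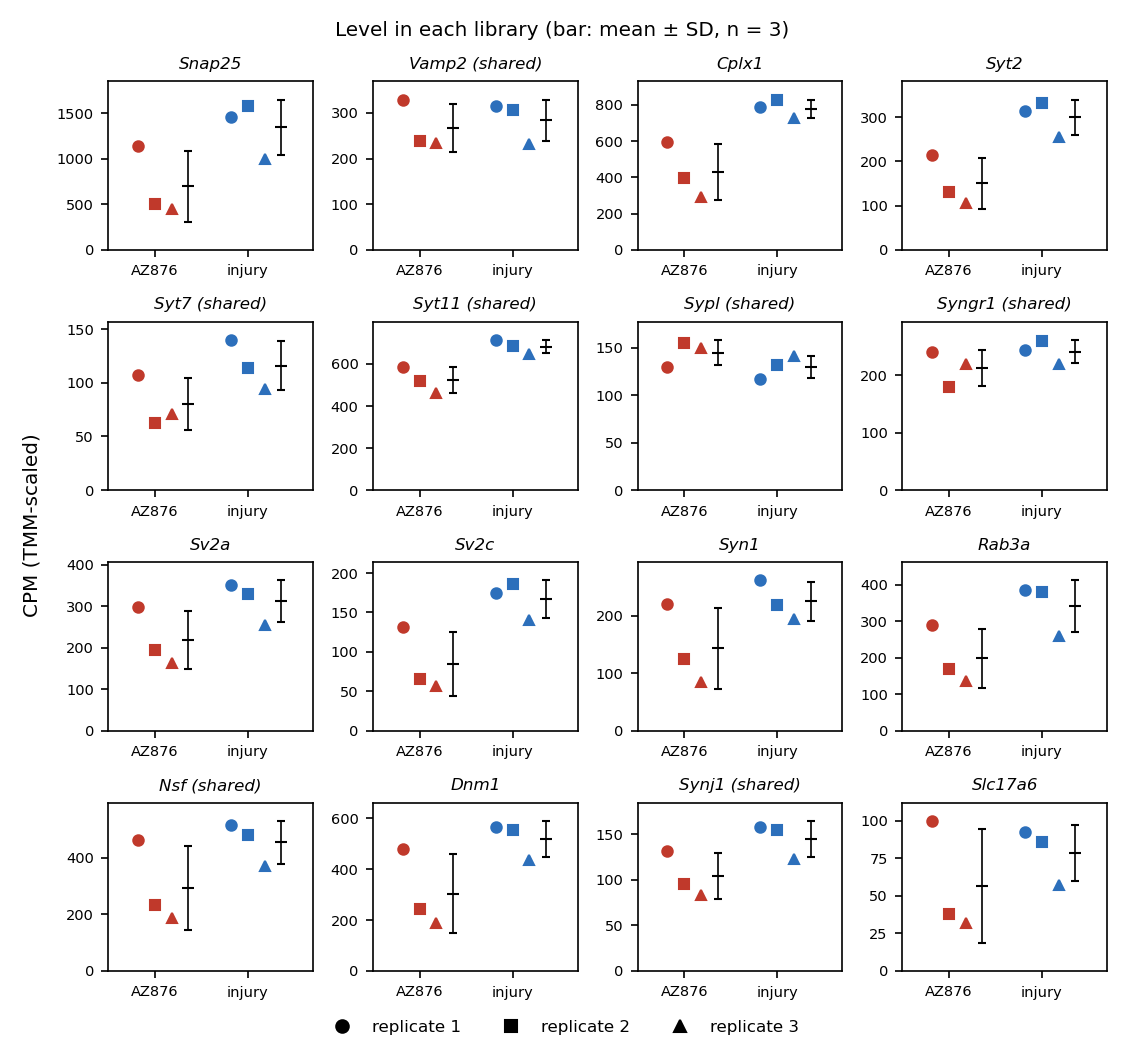
Level in CPM in each library (circle, square and triangle for replicates 1, 2 and 3; AZ876 left, injury right) with mean and SD (n = 3) for the 7 glia-shared genes and, within each role, the genes of smallest p and highest mean. AZ876 replicate 1 stands near the injury libraries in most panels, and the Vamp2 groups cover nearly the same range.

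Rab3a encodes the GTPase that brings vesicles to the release site. It was at 290, 169 and 137 CPM in the AZ876 libraries, against 385, 379 and 259 CPM in the injury libraries. The groups overlapped through AZ876 replicate 1, and the log2 fold change was −0.78 ± 0.29 (SE; edgeR adjusted p = 0.330.) All 9 genes of Rab3 and the active zone had a log2 fold change between −0.89 and −0.59. Those of the scaffold genes were −0.89 ± 0.41 (SE) for Rims1, −0.78 ± 0.32 for Bsn (bassoon) and −0.59 ± 0.35 for Pclo (piccolo). The priming factor genes Unc13a and Unc13c had −0.77 ± 0.35 and −0.85 ± 0.36 (SE). In none of these 9 genes did the groups separate.

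Of the genes that recover vesicles, Dnm1, which encodes the neuronal dynamin that pinches membrane off, was at 479, 242 and 188 CPM in the AZ876 libraries, against 565, 554 and 436 CPM in the injury libraries. AZ876 replicate 1 lay inside the injury range, and the log2 fold change was −0.77 ± 0.33 (SE; edgeR adjusted p = 0.335.) Synj1 encodes synaptojanin 1, a lipid phosphatase that strips clathrin coats. It was at 132, 95.8 and 83.6 CPM in the AZ876 libraries, against 158, 155 and 122 CPM in the injury libraries, with a log2 fold change of −0.48 ± 0.19 (SE). Nsf, the ATPase that takes spent SNAREs apart, is used by all cells. It was at 461, 231 and 187 CPM in the AZ876 libraries, against 516, 478 and 370 CPM in the injury libraries. Its log2 fold change of −0.63 ± 0.33 (SE) was within the range of the neuron-only genes and the lowest of the glia-shared ones. Its neuronal partner gene Napb had −0.63 ± 0.37, and the clathrin adaptor genes Snap91 and Amph had −0.73 ± 0.34 and −0.70 ± 0.32 (SE).

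Slc17a6 encodes VGLUT2, which loads glutamate into the vesicles of most excitatory cord neurons. It was at 100.2, 38.1 and 31.6 CPM in the AZ876 libraries, against 92.6, 86.1 and 57.1 CPM in the injury libraries. AZ876 replicate 1 was the highest of all 6 libraries and the other AZ876 libraries the lowest, and the log2 fold change was −0.47 ± 0.42 (SE). Slc17a7, which encodes VGLUT1 and is mostly made by sensory ganglion and cortical neurons outside the cord, had 13, 4 and 27 counts in the AZ876 libraries, against 58, 39 and 2 counts in the injury libraries. These counts are too few and too scattered to show a difference, with a log2 fold change of −0.87 ± 0.88 (SE).

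General neuron markers had a similar median difference. All 17 markers that are not release genes (such as Rbfox3, Tubb3, Nefm and Uchl1) had a log2 fold change below 0. The values ran from −1.01 (Nefm) to −0.052 (Gap43), with a median of −0.74. At an unadjusted edgeR p under 0.05, 9 of 17 were lower, against 6.74% of all genes. The markers summed to 6294, 4259 and 2998 CPM in the AZ876 libraries, against 8273, 8373 and 6468 CPM in the injury libraries, without overlap. Abundant genes weigh most in this sum. In AZ876 replicate 1, Nefl, Nefm and Nefh were at 611, 933 and 523 CPM, against 743, 1286 and 845 CPM in injury replicate 3. The median over the markers of log2 CPM, centred on each gene's mean, was 0.242 in AZ876 replicate 1 and 0.103 in injury replicate 3. On that scale the groups overlapped. In 7 of 17 markers every AZ876 library lay below every injury library, against 8.64% of all genes. The summed CPM of the neuron-only release genes divided by that of the neuron markers was 0.940, 0.734 and 0.844 in the AZ876 libraries, against 0.896, 0.871 and 0.829 in the injury libraries. The ratio overlapped between groups, with the lowest and the highest value both in the AZ876 group. Relative to the neuron marker median, 14 of the 32 neuron-only genes lay further down and the other 18 less far. In tissue RNA, CPM is a share of the library, so fewer neurons, less RNA per neuron and more RNA from other cells cannot be told apart. The glia-shared release genes divided by the neuron markers gave 0.315, 0.348 and 0.469 in the AZ876 libraries, against 0.266, 0.254 and 0.282 in the injury libraries. The groups did not overlap, with the AZ876 libraries on the higher side. The divisor is the same marker sum, in which the neurofilament genes Nefl, Nefm and Nefh weigh heavily, so this separation depends on them. The sum of the glia-shared over that of the neuron-only release genes was 0.335, 0.474 and 0.556 in the AZ876 libraries, against 0.297, 0.292 and 0.341 in the injury libraries, with AZ876 replicate 1 below injury replicate 3.

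The levels of other cells' markers are set beside these values. The 10 microglia and macrophage markers all had a log2 fold change above 0 and summed to 4255 to 10231 CPM in the AZ876 libraries, against 3146 to 5504 CPM in the injury libraries. The 6 Schwann cell markers, all above 0, summed to 2724 to 3162 CPM with AZ876 and 1091 to 2241 CPM with injury, and the 6 fibroblast and meninges markers, all above 0, to 1839 to 2775 CPM with AZ876 and 578 to 1666 CPM with injury. The 5 T cell markers, all above 0, summed to 11.9 to 23.1 CPM with AZ876 and 3.89 to 7.80 CPM with injury. The 4 erythroid genes, all above 0, summed to 3106 to 16499 CPM with AZ876 and 1758 to 4159 CPM with injury. Of the 8 mature oligodendrocyte markers 7 were below 0, with sums of 20552 to 25517 CPM with AZ876 and 26405 to 28728 CPM with injury. The 8 astrocyte markers, 3 of them below 0, summed to 11836 to 17603 CPM with AZ876 and 12347 to 16388 CPM with injury. Of the 5 dorsal root ganglion markers 3 were below 0, with sums of 30.9 to 74.4 CPM with AZ876 and 65.7 to 84.8 CPM with injury, and Scn10a had 1 count in all 6 libraries. The 6 oligodendrocyte precursor markers, 4 of them below 0, summed to 832 to 1039 CPM with AZ876 and 990 to 1149 CPM with injury. The 5 endothelial markers, 4 of them above 0, summed to 306 to 360 CPM with AZ876 and 264 to 311 CPM with injury. The 4 ependymal markers, all above 0, summed to 82.5 to 113 CPM with AZ876 and 61.1 to 107 CPM with injury. The 4 skeletal muscle markers, all above 0, summed to 5.07 to 30.1 CPM with AZ876 and 2.93 to 15.1 CPM with injury. The part of these cells in the result was not tested.

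**Figure D3:**
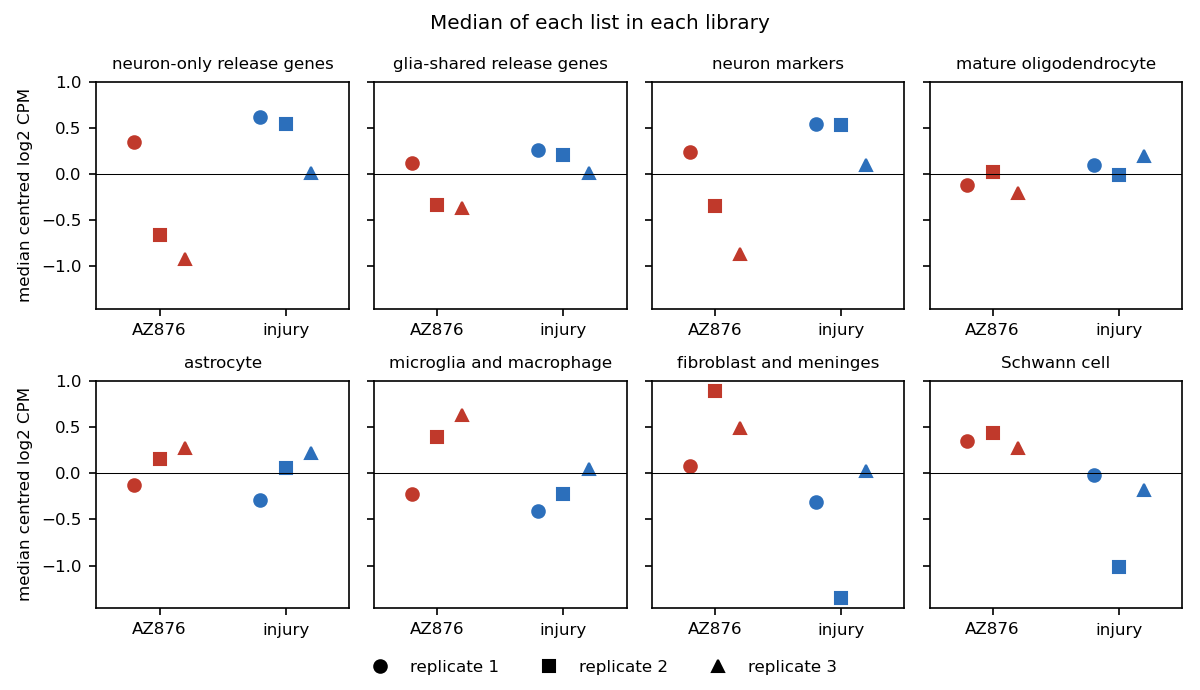
Median over each list of log2 CPM, centred on each gene's mean over the 6 libraries, in each library (AZ876 left, injury right). The neuron-only release genes and the neuron markers follow the same order, with AZ876 replicates 2 and 3 lowest, and the glia-shared release genes show the same order over a smaller span.

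Counts of genes were also set against each other in pairs within each library, where library scaling cancels. The pairs are paralogs except Slc32a1 and Slc17a6, and Slc32a1 is not a member. Vamp1 per Vamp2, Syp per Sypl and Syngr3 per Syngr1 each set a neuron-only gene against a glia-shared one. Their ratios therefore also carry the contrast between the classes. The 13 pairs were chosen after the values of their genes were seen, and their ratios are given without a test. In 4 pairs every AZ876 library lay below every injury library, in 0 above, and in 9 the groups overlapped; no share over other gene pairs was computed. Vamp1 reads per Vamp2 read were 2.03, 1.79 and 1.32 in the AZ876 libraries, against 2.78, 3.06 and 3.25 in the injury libraries. This ratio was lower in every AZ876 library, replicate 1 included. Sv2c reads per Sv2a read were 0.442, 0.337 and 0.346 with AZ876 and 0.497, 0.565 and 0.548 with injury, likewise without overlap, and Sv2b reads per Sv2a read were 0.141, 0.157 and 0.138 with AZ876 and 0.163, 0.203 and 0.163 with injury. Syp reads per Sypl read were 1.90, 0.798 and 0.672 with AZ876 and 2.95, 2.29 and 1.44 with injury, with AZ876 replicate 1 above injury replicate 3. Syt2 reads per Syt1 read (1.77, 3.65 and 3.02 with AZ876, against 2.32, 3.09 and 5.21 with injury) and Cplx1 reads per Cplx2 read (4.13, 5.97 and 4.95 with AZ876, against 4.43, 6.37 and 7.21 with injury) overlapped. Syn1 per Syn2 averaged 1.44 ± 0.157 with AZ876 and 1.54 ± 0.173 with injury, and Rab3a per Rab3c 3.83 ± 0.866 with AZ876 and 3.93 ± 0.903 with injury (SD, n = 3 each), with overlapping groups in both pairs. Syngr3 per Syngr1, Rims1 per Rims2, Unc13a per Unc13c and Bsn per Pclo overlapped as well. The inhibitory transporter gene Slc32a1, which encodes the vesicular carrier of GABA and glycine, had 0.762, 0.985 and 1.11 reads per Slc17a6 read with AZ876 and 1.15, 1.14 and 1.55 with injury, without overlap.

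**Figure D4:**
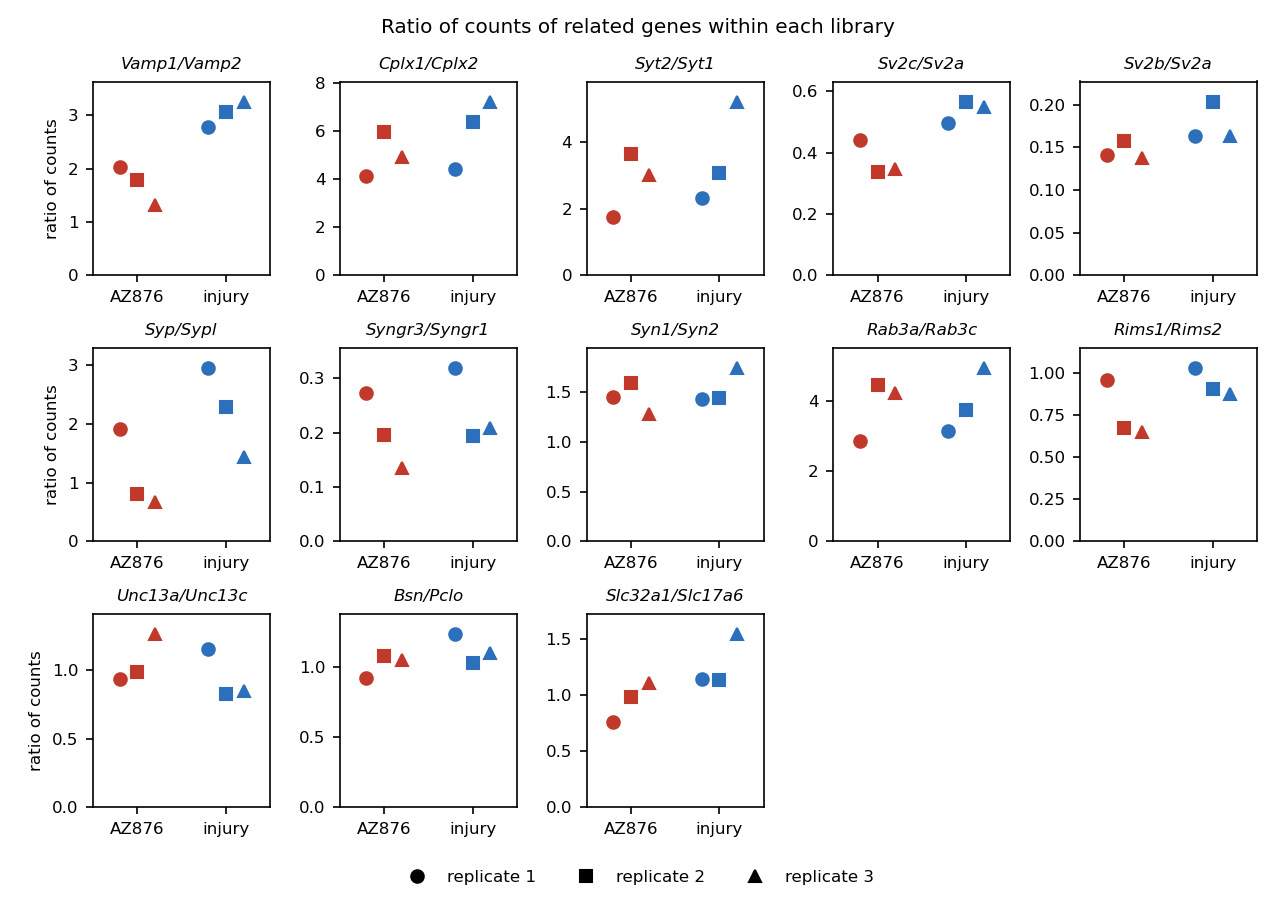
Ratio of read counts of 13 gene pairs, all paralogs except Slc32a1 per Slc17a6, within each library (AZ876 left, injury right, with circle, square and triangle for replicates 1, 2 and 3). Vamp1 per Vamp2 lies between 1.32 and 2.03 in the AZ876 libraries, below all injury libraries, while pairs such as Syn1 per Syn2 overlap.

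Other genes of the vesicle cycle, 75 that are not members, were examined as well, and 72 were tested. Of these 58 had a log2 fold change below 0, with a median of −0.32, and 0 passed edgeR's test over all genes. At an unadjusted p under 0.05, 12 of 72 were lower, against 6.74% of all genes, and 6 of 72 higher, a share close to the 7.98% of all genes. The lowest p-values on the lower side were those of Rph3a, which encodes the Rab3 effector rabphilin, Slc32a1, and the synaptotagmin gene Syt3. Rph3a averaged 247 ± 106 CPM with AZ876 and 480 ± 27.0 CPM with injury (SD, n = 3 each), with a log2 fold change of −0.96 ± 0.28 (SE), and that of Slc32a1 was −0.97 ± 0.29 and of Syt3 −0.79 ± 0.24. The 3 lowest p-values on the higher side were those of Rab3d, known from exocrine and mast cell granules, at 21.3 ± 2.95 CPM with AZ876 and 12.1 ± 4.24 CPM with injury, Unc13d, known from cytotoxic granules, at 7.68 ± 0.521 CPM with AZ876 and 4.56 ± 1.54 CPM with injury, and Vamp8, known from endosomes and granules, at 66.4 ± 12.3 CPM with AZ876 and 48.0 ± 5.88 CPM with injury (SD, n = 3 each). Their log2 fold changes were 0.82 ± 0.28, 0.76 ± 0.27 and 0.47 ± 0.17 (SE), each with an edgeR adjusted p of 0.330. The 19 endocytosis genes, most of them used by all cells, had the median nearest 0 of the 4 groups, −0.19, against −0.44 for SNAREs and regulators, −0.33 for the active zone and −0.32 for vesicle contents. Without AZ876 replicate 1, edgeR called 10 of these genes lower, where 1.64% of all genes were called lower, and without any other single library it called 0.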

How the data were processed

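Total RNA of 6 spinal cord samples was sequenced with an MGI DNBSEQ-T7 paired-end kit, per the labels' protocols. The authors deposited 1 table of raw read counts per gene. HISAT2 2.1.0 and fastp 0.23.0 are the tools listed, per the submitters' processing notes. Build, annotation, counting program and strand setting: not given in the sources used here. Of 57010 rows, 148 repeated symbols had identical counts and were kept once. Library totals ran from 14067649 to 20211175 counts. On the first principal component (55.4% of the variance) the scores were −7.17, 44.2 and 49.5 for AZ876 replicates 1, 2 and 3, and −40.6, −52.3 and 6.31 for injury replicates 1, 2 and 3. No library was a copy of another (chi-square per degree of freedom of 13.1 or more). Nothing in the labels says that replicates came from different mice. The p-values therefore reflect only how these samples vary, possibly for technical reasons.

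Genes were filtered with filterByExpr, scaled by TMM and tested with edgeR 4.0.16 (R 4.3.3), robust quasi-likelihood, no covariates, Benjamini-Hochberg adjustment over 17599 genes, threshold 0.05. Standard errors are the fold change over the square root of F. DESeq2 1.42.0 and limma 3.58.1 (voom) were alternatives. Tested on simulated counts of 17323 genes, a set of them changed by known folds, edgeR recovered 4.55% of genes changed 1.5-fold and 42.2% of those changed 2-fold, with 6 of 90 calls unchanged genes, against 40 of 146 for DESeq2. CPM values use TMM-scaled sizes, and log2 CPM a prior count of 2. Exon lengths are merged GENCODE M21 exons matched by Ensembl identifier, an annotation other than the one counted. Promoter sequences are RefSeq's. Members, classes and lists were chosen with earlier results of these data known. Values of every library are given for each glia-shared gene and, within each role, for the gene of smallest p and that of highest mean CPM. Vamp1, Syp and Slc17a7 were added after their values were seen. Of related genes, the 3 of smallest p in each direction are named. The gene pairs and the limit on differing letters in the promoter search were likewise chosen after values were seen.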

Additional observations from a re-analysis of the deposited data

How the results depend on the processing

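Under DESeq2 size factors, no low-count filter, DESeq2, limma-voom and the replicate block, every member kept its direction. Leaving out 1 library kept it too, except for Stx1a, whose log2 fold change ran from −0.59 to 0.083, the highest without injury replicate 1. edgeR's count of all genes called was 0, 6 without the filter and 178 in DESeq2, and of members called 0, with 1 in DESeq2. With the replicate number as a block, edgeR called 2 genes and no member (smallest adjusted p of 0.0677). Same-numbered libraries deviated from their group means with correlations of 0.39, −0.14 and 0.32, and differently numbered ones with correlations from −0.49 to 0.34. With so few libraries in a group, these values cannot decide whether the numbers pair the samples. When 1 library at a time was left out, the count over all genes ran from 0 to 363, over members from 0 to 17 and over related genes from 0 to 10, each highest without AZ876 replicate 1 and 0 without any other library. The members' median log2 fold change then ran from −1.16 to −0.41, that of neuron-only genes from −1.19 to −0.48 and that of glia-shared genes from −0.48 to −0.30. The neuron-only minus glia-shared difference of medians, −0.32, ran from −0.71 to −0.17, and was −0.29 with only Sypl, Syt11 and Nsf as shared. Depth was not varied. All members differed by less than 2-fold. In the simulation edgeR recovered 4.55% of genes changed 1.5-fold and 42.2% of those changed 2-fold. It changed genes picked at random and drew each independently, whereas the members varied together by library. These shares therefore do not say how often a member would be called. A fit that left out AZ876 replicate 1 and injury replicate 3 together was also run once, after the values were seen. It was dropped and its values are not reported, because it picks libraries by their outcome.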
